A study of Mus musculus with 45 samples.

Results

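The naive pluripotency transcription factors followed here are 10 genes chosen by symbol, *Pou5f1*, *Sox2*, *Nanog*, *Esrrb*, *Klf2*, *Klf4*, *Klf5*, *Tfcp2l1*, *Prdm14* and *Tbx3*, out of 55385 genes in the RNA-seq files, and all 10 were found once and passed the count filter in every comparison. In E4.5 ICM after GABPA degradation, *Prdm14* fell 15.9-fold, *Sox2* 4.88-fold, *Nanog* 2.59-fold and *Klf2* 2.42-fold, while *Klf5* and *Tbx3* were slightly higher. In 2iES cells a different member led the change, as *Pou5f1* fell 3.37-fold, *Prdm14* 3.07-fold and *Nanog* 2.17-fold, while *Sox2* and *Esrrb* did not pass the test. At the late two-cell and morula stages none of the 10 passed it.

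Naive pluripotency is the state of the preimplantation epiblast and of ES cells grown with inhibitors of MEK and GSK3. OCT4 (encoded by *Pou5f1*) and SOX2 bind DNA together at enhancers of pluripotency genes, NANOG binds many of the same sites, and ESRRB, the KLF proteins, TFCP2L1, PRDM14 and TBX3 are the further factors that hold the naive state, several of them downstream of LIF, WNT or MEK signalling. The factors activate each other, which is why they are usually described as a network.

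GABPA is an ETS family transcription factor, and the study asked what its loss does to gene expression between zygotic genome activation and the epiblast. All 18 RNA-seq libraries, controls included, carried Gabpa-dTAG/dTAG, that is, both *Gabpa* alleles fused to a tag through which the small molecule dTAG13 sends the protein to the proteasome, and controls received the solvent DMSO. Embryos came from in vitro fertilization and were treated with 1 µM dTAG13: 3 DMSO and 3 dTAG13 late two-cell libraries (treated from mid-zygote), 2 and 2 morula libraries (treated from the four-cell stage) and 2 and 2 E4.5 ICM libraries (treated from early to middle blastocyst). The 2 and 2 libraries of 2iES cells came from E14 mouse ES cells in 2i/LIF, edited and picked as single clones, after 24 h in 0.5 µM dTAG13. E4.5 ICM was obtained by immunosurgery, which removes trophectoderm and leaves epiblast (EPI) and primitive endoderm (PrE) cells together. From these bulk libraries alone, fewer cells of a type and less RNA per cell cannot be told apart. By the paper's cell counts, EPI numbers did not yet differ between treatments at the middle blastocyst. That time was chosen there to avoid a shift in the ratio of EPI to PrE cells. Dose, duration and cell type all differed between 2iES cells and embryos, and stage cannot be told apart from library batch.

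The libraries held 9457933 to 27660132 estimated counts, with the lowest totals at the morula stage. The paper describes its RNA-seq replicates as biological, but the labels do not say whether they were separate collections. P-values measure only the spread between these libraries. That spread was very uneven. The variance between replicates was 1.62 and 1.67 times the sampling variance (median over genes) in the E4.5 ICM pairs and 2.84 times in treated 2iES cells, against 8.17 to 16.3 times in the remaining pairs, so small differences passed the test in E4.5 ICM more easily than elsewhere. *Gabpa* mRNA, which a protein degrader leaves in place and which therefore does not check the treatment, was higher in every dTAG13 library than in the controls of its stage, for example 27.53 and 27.28 TPM against 10.08 and 11.16 in E4.5 ICM. The stage labels went with their markers, since 11 two-cell genes summed to 1618 to 2166 TPM at the late two-cell stage and to 3.52 to 150 TPM in the other libraries, and 14 PrE genes summed to 787 to 1476 TPM in E4.5 ICM against at most 265 TPM elsewhere.

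**Figure D1:**
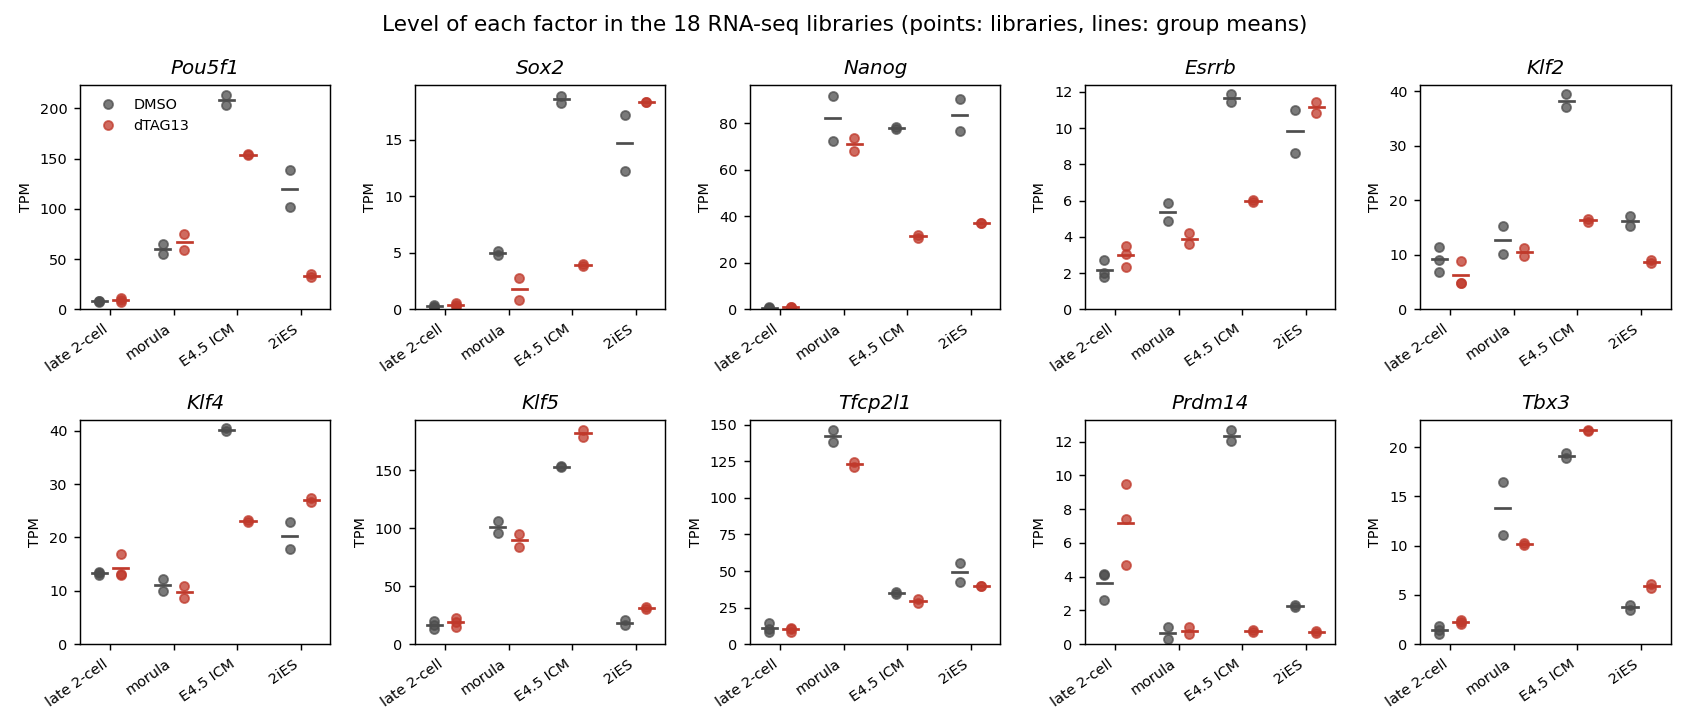
TPM (vertical axis, linear, from 0) of the 10 factors in each of the 18 libraries at 4 stages (horizontal axis), with DMSO in grey, dTAG13 in red, points for libraries and short lines for group means. In E4.5 ICM the red points of *Sox2*, *Nanog*, *Klf2* and *Prdm14* lie far below the grey ones, and in 2iES cells those of *Pou5f1*, *Nanog* and *Prdm14* do.

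The control libraries show when each factor reached its level. TPM is each gene's length-scaled share of the transcripts in a library, so levels of different genes are compared on this scale only. Members whose TPM ranges overlap are not ordered. At the late two-cell stage *Klf5*, *Klf4*, *Tfcp2l1*, *Klf2* and *Pou5f1* had means of 16.6 to 8.29 TPM, each range overlapping the next. *Sox2* (0.21, 0.41 and 0.25 TPM) was lowest, and *Nanog* (0.45, 1.05 and 0.62 TPM) overlapped *Tbx3* alone (1.01 to 1.89 TPM). In the morula the order was *Tfcp2l1* (142 TPM on average), *Klf5* (101), *Nanog* (82.2) and *Pou5f1* (60.3), with no overlap between neighbours, and the other members stood at 13.8 TPM or less. In E4.5 ICM *Pou5f1* (208 TPM), *Klf5* (153) and *Nanog* (78.0) led, and *Esrrb* (11.7) and *Prdm14* (12.4) were lowest. In 2iES cells *Pou5f1* (120), *Nanog* (83.6) and *Tfcp2l1* (49.2) led and *Tbx3* (3.77) and *Prdm14* (2.27) were lowest.

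From late two-cell to morula, 8 of the 10 members rose and 1 fell by edgeR's quasi-likelihood test at an adjusted p under 0.05 (Benjamini-Hochberg), where 31.2% of the 19830 genes tested rose and 38% fell. With a 2-fold change and a mean FPKM of 1 in either group also required, the call used below, 7 rose and 1 fell, against 22.6% and 27.7% of all genes. Folds here are fitted to scaled counts, and ratios of mean TPM were lower for all 10 members, by 0.17 to 2.08 on the log2 scale. *Nanog*, the homeodomain factor of the epiblast, rose 146-fold (102-fold in mean TPM), from its 0.45 to 1.05 TPM to 91.88 and 72.52 TPM (log2 7.19 ± 0.27 SE, adjusted p = 9.53e-10). *Tfcp2l1*, a CP2 family factor that acts under LIF and WNT signalling, stood at 8.39, 10.10 and 14.35 TPM and then at 138.07 and 146.46 TPM. Its rise was 54.4-fold in counts (log2 5.76 ± 0.21, adjusted p = 8.71e-10) but 12.9-fold in mean TPM, so its size depends on the unit. The stages did not overlap for either gene. *Sox2* rose 21.5-fold (adjusted p = 7.88e-08), *Tbx3*, a T-box factor, 10.8-fold (1.43e-07), *Pou5f1* 10.7-fold (4.93e-09), *Klf5* 7.57-fold (3.00e-08) and the orphan nuclear receptor gene *Esrrb* 4.08-fold (4.10e-05). *Klf2* rose 1.74-fold (adjusted p = 0.00767), although without the first morula control the value was log2 0.47 with an adjusted p of 0.127. *Prdm14*, which encodes a PR domain protein that represses FGF signalling and DNA methyltransferase genes, was the exception. It fell 4.26-fold (adjusted p = 0.000496), from 2.63, 4.09 and 4.15 TPM to 0.33 and 1.02 TPM, with no overlap. The size rested on the second morula control, without which it was log2 -3.11, while without the first it was -1.51. *Klf4* stood at 13.3 TPM on average and then at 12.20 and 9.95 TPM, and did not pass the test (adjusted p = 0.813, log2 0.05 in counts and -0.26 in mean TPM).

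From morula to E4.5 ICM, 5 members were called higher and 1 lower, where 16% and 13.2% of all genes were. At the adjusted p alone the members' counts were the same, against 24.6% and 21% of all genes. *Prdm14* rose 14.0-fold to 12.03 and 12.69 TPM (log2 3.81 ± 0.42, adjusted p = 1.95e-05), and no morula control came near these levels. Without the second morula control the value was log2 4.83 and without the first 3.23. *Sox2* rose 2.87-fold (adjusted p = 0.000659), *Klf4* 2.82-fold (5.04e-05), *Pou5f1* 2.62-fold (4.74e-05) and *Klf2* 2.32-fold (0.00178), the last with log2 0.93, under the 2-fold line, without the second morula control. *Tfcp2l1* fell 3.49-fold to 33.97 and 35.89 TPM (adjusted p = 2.51e-05). *Nanog*, *Klf5*, *Esrrb* and *Tbx3* did not pass the test, with log2 changes of -0.37, 0.23, 0.77 and 0.10.

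Between controls of 2iES cells and E4.5 ICM, *Klf5*, *Prdm14* and *Tbx3* were the 3 members called lower in 2iES cells, where 12.7% of all genes were called lower and 12% higher. *Klf5* was 5.36-fold lower (adjusted p = 3.31e-06), at 16.38 and 20.63 TPM against 152.75 and 153.43 TPM. *Prdm14* was 3.57-fold lower (adjusted p = 0.00152), at 2.30 and 2.23 TPM against 12.03 and 12.69 TPM, and *Tbx3* 3.18-fold lower (0.000394), at 3.52 and 4.02 TPM against 18.89 and 19.38 TPM. None of the 3 overlapped between E4.5 ICM and 2iES cells, and their changes kept their direction and stayed past the test in every alternative that had a test. Ratios of mean TPM put 2iES cells lower by 0.12 to 0.65 more on the log2 scale than the fitted counts did (median over the members 0.61 more), so that these 3 were 8.23-fold, 5.27-fold and 4.97-fold lower in TPM. On that scale *Klf2* (37.11 and 39.41 against 17.04 and 15.30 TPM) and *Klf4* (39.93 and 40.47 against 17.78 and 22.86 TPM) were 2.36-fold and 1.97-fold lower without overlap. *Pou5f1* was 1.73-fold lower in mean TPM, also without overlap, but did not pass edgeR's test (log2 -0.17, adjusted p = 0.436). In the fit *Klf2* missed the threshold narrowly (log2 -0.63, adjusted p = 0.0541) and passed with library totals (0.00405), with the 2 stages alone (0.00214) and with a replicate block (0.0415), and *Klf4* (log2 -0.36, adjusted p = 0.128) passed with library totals (0.00283) and with the 2 stages alone (0.0497). *Sox2* and *Esrrb* did not pass, and their sign turned with the unit (log2 0.29 and 0.34 in counts, -0.33 and -0.25 in mean TPM). *Nanog* and *Tfcp2l1* were 1.63-fold and 1.53-fold higher at adjusted p = 0.0257 and 0.0275, where 21.9% of all genes were higher and 20.7% lower at this threshold. Neither reached 2-fold, and neither passed when counts were scaled by library totals alone (adjusted p = 0.424 and 0.605). Scaling by library totals moved the median of all genes to -0.33 on the log2 scale. It moved the split of lower to higher genes from 4113 to 4340 to 6264 to 2665. On the TPM scale *Nanog* overlapped.

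The promoters of *Sox2* and *Nanog* are shown because *Sox2* fell far in E4.5 ICM and because the control rise of both genes between the late two-cell stage and the morula was steep. *Nanog* was added after its values and motifs were seen. RefSeq windows on GRCm38.p6 were at hand for 7 of the 10 members, all but *Klf5*, *Prdm14* and *Tbx3*, with 10 start sites in all. The upstream 250 bases are given 5′ to 3′ on the gene's strand, at chr3:34649745-34649994 (plus strand) for *Sox2* and chr6:122707239-122707488 (plus strand) for *Nanog*, each ending at the base before the start site. The start site is that of RefSeq, which for *Sox2* lies upstream of the GENCODE gene start. Capitals mark ATGCAAA, the octamer core bound by OCT4, and CATTGT, a SOX core, each on either strand.
Sox2: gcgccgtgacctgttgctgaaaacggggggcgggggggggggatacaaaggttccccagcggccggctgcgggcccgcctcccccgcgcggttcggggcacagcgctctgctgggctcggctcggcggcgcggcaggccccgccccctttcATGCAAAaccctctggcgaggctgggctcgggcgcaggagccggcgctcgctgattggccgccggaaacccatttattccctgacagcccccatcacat
Nanog: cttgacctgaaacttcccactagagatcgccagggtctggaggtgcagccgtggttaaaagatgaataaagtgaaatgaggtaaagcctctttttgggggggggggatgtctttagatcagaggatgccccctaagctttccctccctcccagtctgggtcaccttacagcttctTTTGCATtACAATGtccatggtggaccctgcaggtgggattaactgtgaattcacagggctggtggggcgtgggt

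Counted from the start site, the octamer core of *Sox2* lies at -99 to -93 on the gene's strand. In *Nanog* it lies at -75 to -69 on the other strand, and the SOX core follows after 1 base, at -67 to -62, also on the other strand. The octamer core was in 4.12% and the SOX core in 10.7% of 32851 upstream windows of the same length, both strands counted. CCGGAAG, one 7-letter form of the site that GABPA binds, was in 6.91% of all windows and in none of the 10 of these members. Only exact matches were sought, so other forms of an ETS site were not counted. The *Sox2* window holds CCGGAA without the final G. The paper reports GABPA binding at the super-enhancer of *Sox2*. GGGTGTG, a KLF word, was in 6.93% of windows, and AAGGTCA, an ESRRB core, in 4.08%. Among the members the first was found before 1 start of *Esrrb* and the second before none, and CATTGT was also found before the second start of *Pou5f1*. These matches describe letters in a window only.

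In E4.5 ICM, 8 of the 10 members were lower and 2 higher after dTAG13 at an adjusted p under 0.05, where 38.5% of the 15840 genes tested were lower and 38.4% higher. At the 2-fold call 4 were lower and none higher, against 13.2% and 12.1% of all genes. The members' median log2 change was -0.89, and that of all genes 0.01. Among the core factors, *Sox2* stood at 18.23 and 18.90 TPM in controls and at 4.01 and 3.82 TPM after dTAG13. The groups were far apart, and *Sox2* fell 4.88-fold (log2 -2.29 ± 0.09 SE, edgeR's quasi-likelihood test, Benjamini-Hochberg adjusted p = 6.40e-23). *Nanog* stood at 78.55 and 77.48 TPM and then at 31.90 and 30.83 TPM, without overlap, a fall of 2.59-fold (log2 -1.38 ± 0.04, adjusted p = 3.09e-27). *Pou5f1*, the partner of *Sox2*, moved least of the core factors. Its values were 203.48 and 213.10 TPM against 153.81 and 154.28 TPM, a 1.38-fold difference (log2 -0.46 ± 0.03, adjusted p = 2.63e-16), again without overlap.

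*Prdm14* showed the largest change of the 10. It stood at 12.03 and 12.69 TPM in controls and at 0.87 and 0.73 TPM after dTAG13, which is 654 and 629 counts against 42 and 36. The fall was 15.9-fold (log2 -3.99 ± 0.13, adjusted p = 1.21e-25), to within the range of the morula controls (0.33 and 1.02 TPM). Among the KLF genes, which encode zinc finger factors with overlapping targets, *Klf2* fell from 37.11 and 39.41 to 16.53 and 16.07 TPM, without overlap (2.42-fold, log2 -1.27 ± 0.06, adjusted p = 4.19e-21). *Klf4* was lower by less than the call requires, at 39.93 and 40.47 against 23.32 and 22.80 TPM (1.80-fold, adjusted p = 3.94e-20). *Klf5*, which also acts in trophectoderm, moved the other way, from 152.75 and 153.43 to 178.84 and 185.14 TPM (log2 0.20 ± 0.02, adjusted p = 2.44e-09).

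Of the remaining factors *Esrrb* stood at 11.45 and 11.87 TPM in controls and at 5.92 and 6.04 TPM after dTAG13, without overlap, a 1.90-fold difference (adjusted p = 3.22e-15). *Tfcp2l1* was 1.33-fold lower (33.97 and 35.89 against 28.22 and 30.96 TPM, adjusted p = 3.06e-12). *Tbx3* was 1.10-fold higher (18.89 and 19.38 against 21.75 and 21.68 TPM, adjusted p = 0.00419).

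These small p-values rest on the very small spread of the E4.5 ICM replicates. When all 18 libraries shared 1 estimate of the spread, *Prdm14* (adjusted p = 1.92e-06), *Nanog* (5.76e-05), *Sox2* (0.000155), *Klf4* (0.000925), *Klf2* (0.00146) and *Esrrb* (0.0188) stayed past the test, while *Pou5f1* (0.0774), *Tfcp2l1* (0.169), *Klf5* (0.39) and *Tbx3* (0.665) did not. *Tbx3* also missed it by DESeq2 (0.0902) and without either DMSO library (0.115 and 0.0645).

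**Figure D2:**
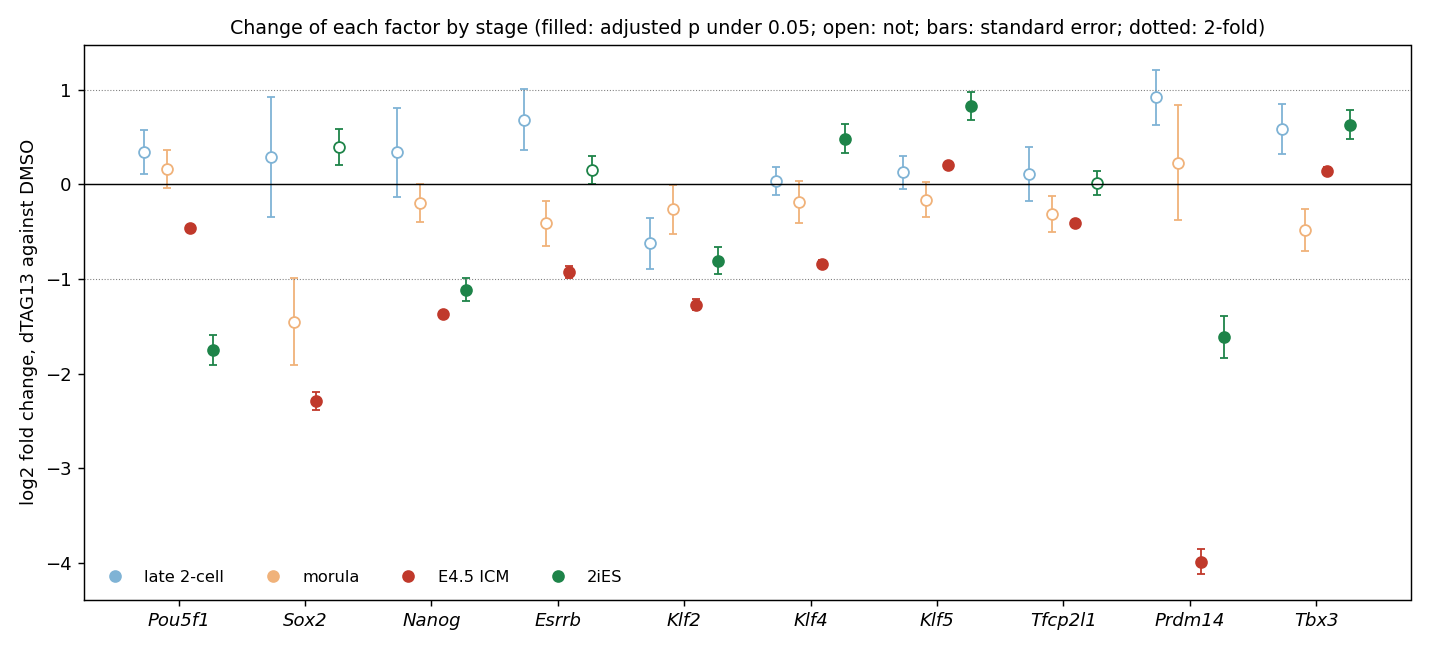
Fitted log2 fold change of dTAG13 against DMSO (vertical axis) for the 10 factors (horizontal axis) at 4 stages (colours), with standard errors as bars, filled points for an adjusted p under 0.05 and dotted lines at a 2-fold change. In E4.5 ICM the points run from -3.99 for *Prdm14* to 0.20 for *Klf5*, and in 2iES cells from -1.75 for *Pou5f1* to 0.83 for *Klf5*.

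Markers of the other cell types of the blastocyst moved with these changes in E4.5 ICM. In that comparison 38.5% of all genes were lower and 38.4% higher at an adjusted p under 0.05 by edgeR's test. By the 2-fold call 13.2% were lower and 12.1% higher. The 10 EPI markers, most of which also stand in the lists of regulators and targets described further on and which are not particular to epiblast (1649 to 2048 TPM at the late two-cell stage), summed to 1096 and 1122 TPM in controls and to 506 and 514 TPM after dTAG13, with 10 of 10 lower at an adjusted p under 0.05 and 9 called. The 2 largest falls were in *Etv5* (5.12-fold), an ETS factor gene under FGF signalling, and *Fgf4* (4.25-fold), the ligand of that pathway. The 14 PrE markers rose in sum from 787 and 799 to 1458 and 1476 TPM, with 10 higher, 2 lower and 2 past neither side. *Dab2*, an endocytic adaptor gene, was 3.20-fold and *Cubn*, a nutrient receptor gene, 2.32-fold higher, and only these 2 PrE markers were called. *Dab2* alone went from 138 to 446 TPM on average. Mean TPM was lower after dTAG13 for the factor genes *Sox17* (104.8 to 95.3), *Sox7* (18.5 to 14.1) and *Hnf4a* (1.435 to 1.305). It was higher for the rest of the PrE list. The 14 trophectoderm markers rose from 111 and 119 to 929 and 933 TPM, with 10 of 12 tested higher (9 called) and 1 lower. Most of the rise was in the keratin genes *Krt18* (23.8 to 478 TPM on average) and *Krt8* (40.9 to 270 TPM), which PrE also expresses, and in *Tspan8* (11.4 to 116 TPM). These 3 were named after their values were seen. Of the defining factors, *Gata3* went from 1.54 to 11.2 TPM, *Cdx2* from 0.45 to 2.18 TPM and *Elf5* from 0.10 to 6.30 TPM, *Hand1* stayed at 0.03 TPM or less, and *Dlx3* was listed at 0 in all E4.5 ICM libraries. By fold, *Elf5* (29.7-fold) and *Krt7* (25.3-fold) rose most among the called trophectoderm markers, and *Ascl2* fell 2.26-fold. The part of cell composition in the members' changes was not tested in these libraries.

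**Figure D3:**
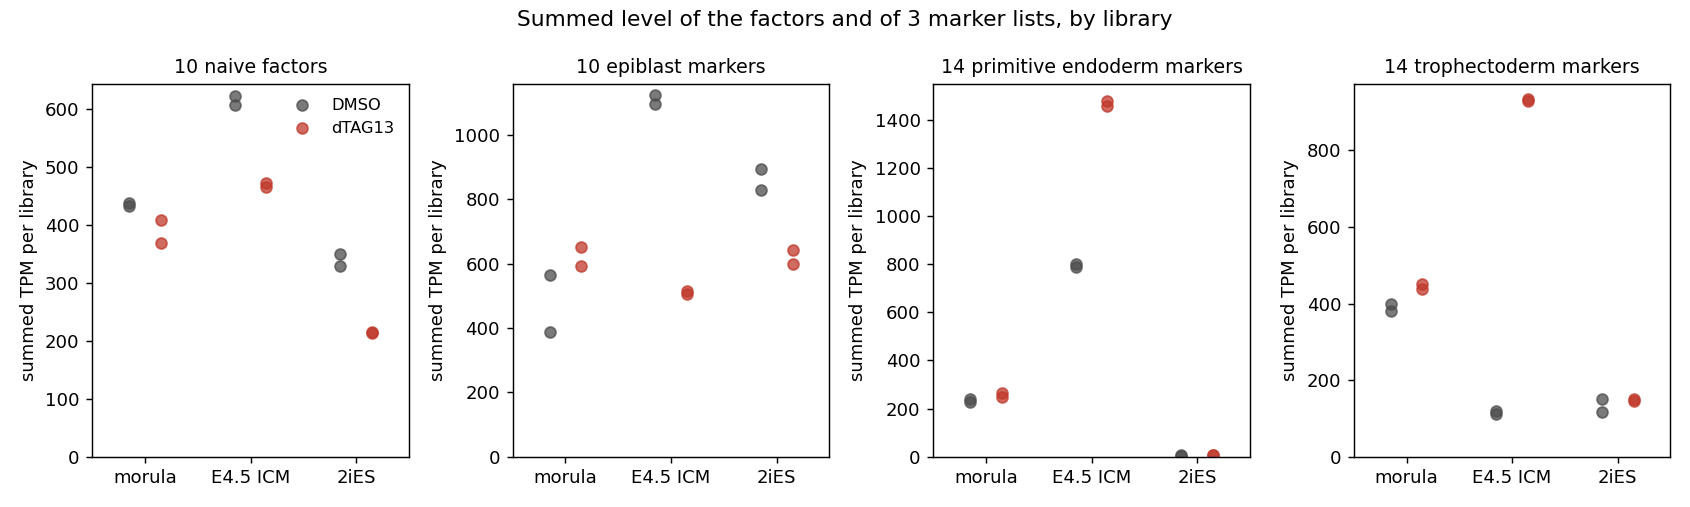
Summed TPM per library (vertical axis, from 0) of the 10 factors and of lists of 10 epiblast, 14 primitive endoderm and 14 trophectoderm markers at the morula, E4.5 ICM and 2iES stages, DMSO in grey and dTAG13 in red. In E4.5 ICM the factors go from 606 and 623 to 465 and 472 TPM while the trophectoderm list rises to 929 and 933 TPM, and in 2iES cells the primitive endoderm list stays at 8.54 TPM or less.

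2iES cells are a culture without the other compartments of an embryo, and the 14 PrE markers summed to 4.69 and 7.57 TPM in controls and to 7.47 and 8.54 TPM after dTAG13. Of 9 PrE markers tested there, 5 were higher and none lower, led by *Cubn* (18.5-fold) and *Col4a1* (5.53-fold), a basement membrane collagen gene. Both stayed near the floor, *Cubn* going from 0.045 to 0.775 TPM on average and *Col4a1* from 0.31 to 1.115 TPM. The trophectoderm list overlapped in sum (117 and 150 against 144 and 150 TPM), with 3 of 10 tested higher, among them *Gata2* (2.67-fold) and *Ascl2* (2.08-fold), and 2 lower, among them *Eomes* (2.31-fold). In these cells 4 members were lower and 3 higher at an adjusted p under 0.05, where 28.1% of 15511 genes were lower and 26.5% higher. At the 2-fold call 3 were lower and none higher, against 15.6% and 12.4% of all genes, and the members' median log2 change was 0.08 (all genes 0.03).

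*Pou5f1* fell furthest, from 138.33 and 101.82 to 35.28 and 32.24 TPM, well below either control (3.37-fold, log2 -1.75 ± 0.16, edgeR's quasi-likelihood test, Benjamini-Hochberg adjusted p = 0.000243). *Prdm14* fell from 2.30 and 2.23 to 0.76 and 0.64 TPM (3.07-fold, log2 -1.62 ± 0.22, adjusted p = 0.00120). *Nanog* fell from 76.84 and 90.26 to 37.28 and 37.20 TPM (2.17-fold, log2 -1.12 ± 0.12, adjusted p = 0.000515). None of the 3 overlapped between treatments, although under upper-quartile scaling, which moved the median of all genes to 0.21, *Nanog* was just under the 2-fold line (log2 -0.93).

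*Klf2* was lower too, at 17.04 and 15.30 against 8.54 and 8.98 TPM, without overlap (1.75-fold, adjusted p = 0.00355). *Klf5* was higher at 16.38 and 20.63 against 30.50 and 32.22 TPM (1.78-fold, adjusted p = 0.00354), *Tbx3* at 3.52 and 4.02 against 6.12 and 5.70 TPM (1.55-fold, adjusted p = 0.0113) and *Klf4* at 17.78 and 22.86 against 27.43 and 26.55 TPM (1.40-fold, adjusted p = 0.0335). The treated values of all 3 lay above both controls. Without either treated library *Klf2* (adjusted p = 0.0866 and 0.0571), *Klf4* (0.0906 and 0.0891) and *Tbx3* (0.0810 and 0.0615) no longer passed. Under upper-quartile scaling *Klf5* instead crossed the 2-fold line (log2 1.013), and the split of all genes called lower to higher went from 2415 to 1924 to 1994 to 2467.

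*Sox2* stood at 12.26 and 17.18 TPM in 2iES controls and at 18.36 and 18.37 TPM after dTAG13, so both treated libraries were above the controls, but the difference did not pass the test (log2 0.39 ± 0.19, adjusted p = 0.121). Without the second DMSO library it did (log2 0.64, adjusted p = 0.000223), and under upper-quartile scaling too (log2 0.57, adjusted p = 0.0374). *Esrrb* (8.64 and 10.98 against 10.84 and 11.44 TPM) overlapped and did not pass (log2 0.15 ± 0.15, adjusted p = 0.435). *Tfcp2l1* did not pass either (log2 0.01 ± 0.12, adjusted p = 0.939). Its TPM values, 55.59 and 42.78 against 39.90 and 39.84, and its counts, 3748 and 4562 against 3973 and 3113, order the control libraries differently. The cause was not tested.

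The effect of dTAG13 on the members was then compared between E4.5 ICM and 2iES cells with an interaction term, at unlike doses and durations. The log2 difference (E4.5 ICM effect minus 2iES effect) was lower than 0 for 8 members and higher for 1 at an adjusted p under 0.05, where 21.8% and 20.1% of 17657 genes were. With the 2-fold call 4 were lower and 1 higher, against 11.2% and 10.4% of all genes. *Sox2* differed most, by -2.70 ± 0.24 (adjusted p = 4.33e-05), lower in E4.5 ICM and not past the test in 2iES cells. *Prdm14* differed by -2.39 ± 0.24 (8.96e-05), with the deeper fall in E4.5 ICM. *Klf4* (-1.35 ± 0.17, adjusted p = 0.000346) was lower in E4.5 ICM and higher in 2iES cells, and *Esrrb* differed by -1.09 ± 0.17 (adjusted p = 0.000920), or by -0.90, under 2-fold, without the first DMSO library of 2iES cells. *Pou5f1* went the other way (1.27 ± 0.16, adjusted p = 0.000270), with the deeper loss in 2iES cells. *Nanog* was the member whose difference did not pass (-0.28 ± 0.14, adjusted p = 0.132). The ratio of *Pou5f1* to *Sox2* TPM sets these apart. It was 11.2 and 11.3 in E4.5 ICM controls and 38.4 and 40.4 after dTAG13, whereas in 2iES cells it was 11.3 and 5.93 in controls and 1.92 and 1.76 after dTAG13.

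At the morula stage no member passed the test, where 0.205% of 13667 genes were lower and 0.161% higher by edgeR's quasi-likelihood test, and 0.198% and 0.154% by the 2-fold call. DESeq2 passed no member either. Scaling by library totals moved the split of lower to higher genes from 28 to 22 to 88 to 40. At an unadjusted p under 0.05 there were 1854 genes, among them *Sox2* and *Tbx3*. *Sox2* stood at 5.20 and 4.82 TPM in controls and at 0.80 and 2.81 TPM after dTAG13, in counts 124 and 127 against 23 and 76. Both treated libraries were below both controls but far from each other (log2 -1.45 ± 0.46, adjusted p = 0.207). Without the second treated library the value was log2 -2.68 with an adjusted p of 0.00112. With all libraries kept it also passed with the replicate number as a block (log2 -1.64, adjusted p = 0.00288) and with no count filter (0.0114), but not by DESeq2 (0.159). *Tbx3* stood at 16.50 and 11.06 TPM against 10.23 and 10.09 TPM (log2 -0.48 ± 0.22, adjusted p = 0.361), and passed only without the second DMSO library (0.0492). The other 8 members had log2 changes from -0.41 for *Esrrb* to 0.23 for *Prdm14*, the latter at 10 to 34 counts a library.

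The interaction of E4.5 ICM against morula was lower than 0 for 5 members and higher for none, where 15.7% and 13.4% of 16799 genes were. With the 2-fold call only 2, *Prdm14* and *Nanog*, were lower and none higher, against 9.29% and 8.96% of all genes. The 5 members past the test were *Prdm14* (-4.17 ± 0.57, adjusted p = 0.000822, or -5.20 without the second morula control), *Nanog* (-1.16 ± 0.19, adjusted p = 0.00183, or -0.999 without that library), *Klf2* (-0.99 ± 0.26, adjusted p = 0.0191), *Klf4* (-0.64 ± 0.19, adjusted p = 0.0320) and *Pou5f1* (-0.61 ± 0.16, adjusted p = 0.0210). The last 3 missed the test without any 1 of the 4 E4.5 ICM libraries. For *Sox2* the difference was -0.81 ± 0.54 and did not pass (adjusted p = 0.286).

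At the late two-cell stage, where 7.24% of 17421 genes were lower and 1.32% higher by edgeR's test (3.63% and 0.476% by the 2-fold call), no member passed either. At an unadjusted p under 0.05 there were 3706 genes, among them *Prdm14*, *Klf2* and *Tbx3*. Upper-quartile scaling moved the split of lower to higher genes from 1262 to 230 to 957 to 482. *Prdm14* came nearest. It stood at 2.63, 4.09 and 4.15 TPM in controls and at 9.48, 7.45 and 4.69 TPM after dTAG13, all treated libraries above all controls (log2 0.92 ± 0.29, adjusted p = 0.0876). It passed by DESeq2 (0.0131), with no count filter (0.00533), with all 18 libraries in 1 fit (0.0408) and without the third treated library (0.0265). *Tbx3* also lay higher in every treated library, at 2.28, 2.09 and 2.42 TPM against 1.47, 1.89 and 1.01 TPM (log2 0.58 ± 0.26, adjusted p = 0.234), and passed only with all 18 libraries in 1 fit (0.0306). *Klf2* had 11.51, 6.89 and 9.10 TPM in controls and 8.91, 4.93 and 4.87 TPM after dTAG13, overlapping ranges (log2 -0.62 ± 0.27, adjusted p = 0.218). The other 7 had log2 changes of 0.03 to 0.68, with *Sox2* at 9 to 25 counts and *Nanog* at 19 to 51 counts a library.

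The composition of the KLF trio differed between stages and, in E4.5 ICM and 2iES cells, between treatments. *Klf5* made up 77.7% and 84.1% of the summed TPM of *Klf2*, *Klf4* and *Klf5* in morula controls, 66.5% and 65.8% in E4.5 ICM controls and 32.0% and 35.1% in 2iES controls. After dTAG13 its share was 81.8% and 82.6% in E4.5 ICM and 45.9% and 47.6% in 2iES cells, above the controls in both. The treatments overlapped in the morula (81.1% and 81.9% after dTAG13) and at the late two-cell stage (38.0% to 44.6% in controls and 43.1% to 56.1% after dTAG13). The share of *Klf2* went from 16.1% and 16.9% to 7.56% and 7.17% in E4.5 ICM and from 33.3% and 26.0% to 12.8% and 13.3% in 2iES cells. The trio's sum in E4.5 ICM was 229.79 and 233.31 TPM in controls and 218.69 and 224.01 TPM after dTAG13. In 2iES cells it went the other way, from 51.2 and 58.79 to 66.47 and 67.75 TPM.

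**Figure D4:**
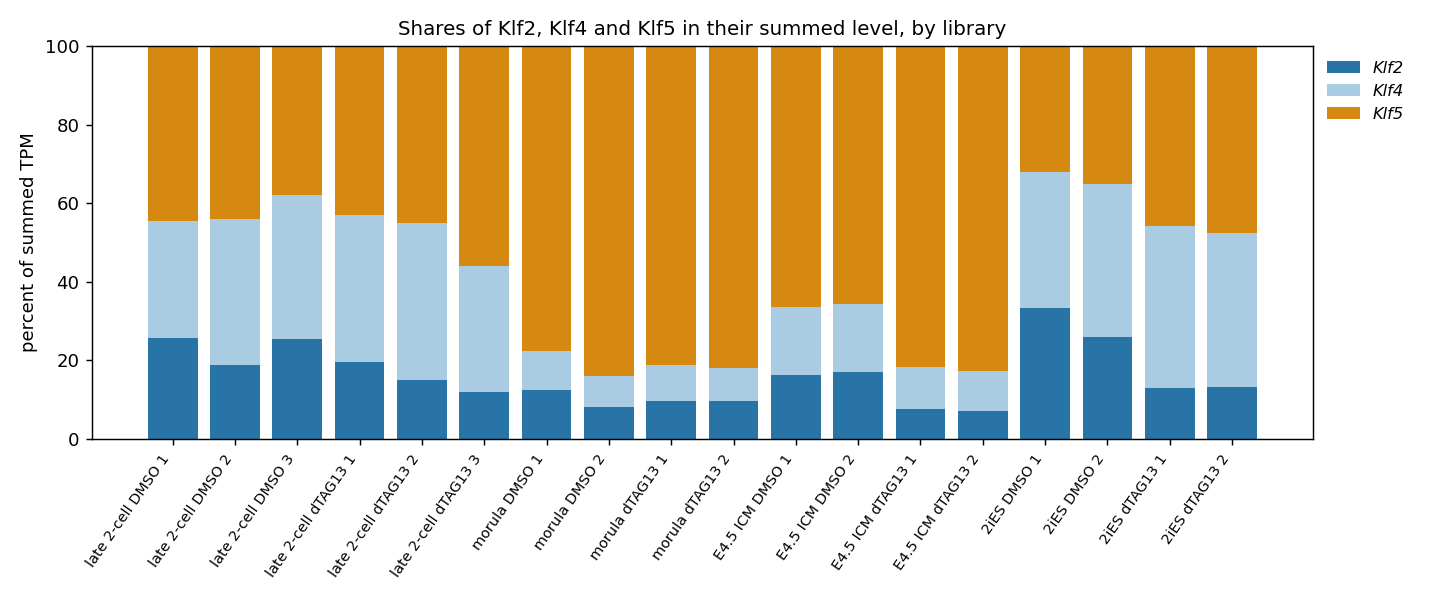
Percent of the summed TPM of *Klf2*, *Klf4* and *Klf5* held by each gene (vertical axis) in each of the 18 libraries (bars). *Klf5* holds 65.8% and 66.5% in E4.5 ICM controls and 81.8% and 82.6% after dTAG13, and the share of *Klf2* falls to 7.56% and 7.17%.

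Further genes of the network were taken from 3 lists chosen by function. Of 22 other regulators of naive cells, 13 were lower and 7 higher in E4.5 ICM at an adjusted p under 0.05, with a median log2 change of -0.32, where 38.5% of all genes were lower and 38.4% higher. In 2iES cells 8 of 21 tested were lower and 4 higher (median -0.07), where 28.1% of all genes were lower and 26.5% higher. The numbers higher lay near those shares at both stages, and differences from them were not tested. *Nr0b1* (DAX1, an orphan nuclear receptor) was called lower in both, 3.28-fold in E4.5 ICM and 2.44-fold in 2iES cells. *Etv5* had the largest fall of this list in E4.5 ICM (5.12-fold) and *Spic*, an ETS factor gene, in 2iES cells (5.68-fold), where *Tfap2c*, an AP-2 factor gene, was the one called higher (2.78-fold).

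Of 22 known targets of the network, 19 were lower (14 called) and 3 higher in E4.5 ICM, with a median log2 change of -1.25. There 38.5% of all genes were lower (13.2% called) and 38.4% higher. In 2iES cells 9 were lower (7 called) and 1 higher (median -0.24), where 28.1% of all genes were lower and 15.6% called lower. *Lefty2*, a Nodal antagonist, fell most in both, 18.2-fold in E4.5 ICM and 5.04-fold in 2iES cells. *Phc1*, a Polycomb subunit gene, fell 12.2-fold in E4.5 ICM, and *Utf1*, a chromatin factor gene of undifferentiated cells, 3.68-fold in 2iES cells. *Dppa3* (STELLA, a maternal factor) was the target called higher, 3.65-fold in E4.5 ICM.

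Of 10 factors of exit from the naive state, 6 passed the count filter in E4.5 ICM, where 4 were lower and 1 higher, and 7 in 2iES cells, where 3 were lower and 1 higher, few genes beside the same shares of all genes. *Foxd3*, a forkhead factor gene, fell 4.20-fold in E4.5 ICM and 5.75-fold in 2iES cells, from mean levels of 2.51 and 0.84 TPM. *Otx2* fell 2.73-fold in E4.5 ICM and *Sox4* rose 2.08-fold in 2iES cells. At the late two-cell stage 2 of the 19 tested targets were lower, near the 7.24% of all genes, and no gene of the other 2 lists passed, and at the morula stage no gene of the 3 lists did.

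Across the 18 libraries the members fell into looser and tighter pairs. On log2(TPM + 1), Pearson's r was 0.97 between *Sox2* and *Esrrb* and 0.97 between *Klf5* and *Tbx3*, while *Prdm14* had r from -0.59 (with *Tfcp2l1*) to 0.33 (with *Klf4*). The libraries share 8 groups, so r follows group means and is a description. Among 12032 genes with a group mean of at least 5 TPM, the most alike were *Dctn2* and *Rab1b* for *Pou5f1* (r = 0.99 and 0.99), *Adprh* and *Ifitm2* for *Sox2* (0.98 and 0.97), *Rpl5* and *Rpl8* for *Nanog* (0.98 and 0.98) and *Sox2* and *Fn1* for *Esrrb* (0.97 and 0.96). They were *Ddx39b* and *Daxx* for *Klf2* (0.94 and 0.94), *St6galnac3* and *2310043M15Rik* for *Klf4* (0.95 and 0.94) and *Tmem263* and *Rps2-ps6* for *Klf5* (0.98 and 0.98). For *Tfcp2l1* they were *Rps26* and *Gm8226* (0.99 and 0.99) and for *Prdm14* *Fbxo27* and *Tatdn3* (0.91 and 0.90). *Adprh* went from 47.3 to 7.49 TPM on average after dTAG13 in E4.5 ICM, where *Sox2* fell, and from 41.3 to 32.5 TPM in 2iES cells, where the mean of *Sox2* was higher after dTAG13 (14.7 and 18.4 TPM).

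All 10 members are annotated genes of GRCm38 (GENCODE M21): *Pou5f1* on chromosome 17 from 35506018 to 35510772, *Sox2* on 3 from 34650405 to 34652461, *Nanog* on 6 from 122707489 to 122714633, *Esrrb* on 12 from 86361117 to 86521628, *Klf2* on 8 from 72319033 to 72321656, *Klf4* on 4 from 55527143 to 55532466 on the minus strand, *Klf5* on 14 from 99298691 to 99315036, *Tfcp2l1* on 1 from 118627945 to 118685168, *Prdm14* on 1 from 13113457 to 13127163 on the minus strand, and *Tbx3* on 5 from 119670669 to 119684724. Of the 31-base words of *Nanog* exons, 10.4% also occur in other genes, 4.6% in *Nanog-ps1* alone, and of those of *Pou5f1* 4.79% do, against 2.25% or less for the other members, so part of their reads could be shared. The antisense gene *Gm19553* covers 14.1% of the exonic bases of *Pou5f1*, and the library kit does not mark strand, so reads from the 2 cannot be told apart there.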

How the data were processed

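Poly(A) RNA of 18 libraries was analysed. The authors made the deposited expected counts, TPM and FPKM values per gene and library with RSEM, after trimming (Trimmomatic) and STAR alignment to GRCm38. The SMART-Seq low-input kit used amplifies cDNA without molecular identifiers or strand. Expected counts were rounded and tested with edgeR 4.0.16 (quasi-likelihood, TMM scaling, R 4.3.3), each stage alone, on genes reaching 10 counts in a number of libraries equal to the smaller group. The 9 DMSO libraries were fitted together for stage contrasts, and interactions over the libraries of both stages. P-values were adjusted over all genes tested (Benjamini-Hochberg). A call required an adjusted p under 0.05, a 2-fold change and, in either group, a mean FPKM of 1. The FPKM minimum was added to the stage contrasts after the data were seen and changed no member's call there. Errors beside log2 values are standard errors. DESeq2 1.42.0, other scalings, filters and sets of libraries were alternatives, and the tests were tried on simulated data. Of 55385 gene IDs, 55144 matched a symbol in GENCODE M21.

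The members and gene lists were chosen with earlier results of these data known. Beside the members, the text names up to 2 called genes per direction, list and dTAG13 comparison, by size of change, and the 2 genes most correlated with each member. Those of *Tbx3* are not reported here. Two-cell, oocyte, cumulus and fibroblast marker lists were also summed. Promoters were to be shown for the 2 members with the largest fall in E4.5 ICM, of which *Sox2* had a window. *Nanog* was added afterwards. Same-numbered DMSO and dTAG13 replicates did not deviate together (r of -0.11 to 0.05), so numbers were not treated as pairs. Chromatin data of the study were not analysed here.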

Additional observations from a re-analysis of the deposited data

Results flagged for a closer look

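The effect of dTAG13 on 9 of the 10 members differed between E4.5 ICM and 2iES cells by the interaction test of edgeR (adjusted p under 0.05). The log2 difference, E4.5 ICM minus 2iES cells, was -2.70 for *Sox2*, -2.39 for *Prdm14*, -1.35 for *Klf4*, -1.09 for *Esrrb*, -0.64 for *Klf5*, -0.51 for *Tbx3*, -0.49 for *Klf2*, -0.44 for *Tfcp2l1* and 1.27 for *Pou5f1*. The values for *Klf2*, *Tfcp2l1* and *Tbx3* no longer passed without several single libraries, that of *Klf2* also not by DESeq2 (adjusted p = 0.0616) or with no count filter (0.0604), and that of *Klf5* without the first treated E4.5 ICM library. Doses and durations differed between the embryos and the cells.

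Between E4.5 ICM and the morula the effect differed for 5 members, by log2 -4.17 for *Prdm14*, -1.16 for *Nanog*, -0.99 for *Klf2*, -0.64 for *Klf4* and -0.61 for *Pou5f1*.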

How the results depend on the processing

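Scaling, count filter, test, set of libraries and thresholds were varied in turn. DESeq2 brought its own scaling and its own filter (14037 genes against 17421 at the late two-cell stage), and fits over other sets of libraries changed the genes that passed the filter (21915 against 15840 in E4.5 ICM with all 18 libraries). Ratios of mean TPM between control stages were added after seeing the data. The 4 members called lower in E4.5 ICM and the falls of *Pou5f1* and *Prdm14* in 2iES cells kept their direction and stayed past the test in every alternative with a test.

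With no count filter 1 member was higher at the late two-cell stage, 1 was lower and called lower in the morula, and 1 was higher for E4.5 ICM minus morula. With DESeq2 1 was higher at the late two-cell stage, 1 in E4.5 ICM and 1 for E4.5 ICM minus morula. With all 18 libraries in 1 fit 0 were higher in E4.5 ICM and 2 (1 called) at the late two-cell stage. Without the fold threshold 8 were called lower and 2 higher in E4.5 ICM, and 3 higher in 2iES cells. Upper-quartile scaling called 1 higher in 2iES cells. With library totals 6 members were lower and 0 higher in 2iES controls against E4.5 ICM, and 3 lower and 2 higher for E4.5 ICM minus morula. With the 2 stages fitted alone 2 members were lower for E4.5 ICM against morula and 5 for 2iES cells against E4.5 ICM. Beyond what each alternative changes, the cause was not tested.

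Among log2 values that changed sign, *Tfcp2l1* in 2iES cells was -0.065 with no filter. *Klf4* for morula against late two-cell was -0.018 with DESeq2 size factors, -0.027 with no filter and -0.018 with DESeq2. *Tbx3* for E4.5 ICM against morula was -0.069 with the 2 stages alone. With library totals *Sox2* and *Esrrb* for 2iES cells against E4.5 ICM were -0.18 and -0.13, and *Tfcp2l1* for E4.5 ICM minus morula was 0.045. None of these passed the test in the reported fit.

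Leaving out 1 library at a time, where a lone library was taken to vary like the others, gave these ranges. Members past the test numbered 0 to 1 higher at the late two-cell stage (0 to 1 called), 0 to 1 lower in the morula (0 to 1 called), 1 to 2 higher in E4.5 ICM, 1 to 5 higher in 2iES cells, 1 to 2 lower for E4.5 ICM against morula and 0 to 2 higher for 2iES cells against E4.5 ICM. They numbered 4 to 9 lower for E4.5 ICM minus 2iES cells, and 2 to 6 lower and 0 to 2 higher for E4.5 ICM minus morula. Log2 values ran from -0.024 to 0.66 (*Sox2*), -0.080 to 0.11 (*Klf4*), -0.015 to 0.27 (*Klf5*) and -0.14 to 0.34 (*Tfcp2l1*) at the late two-cell stage, from -0.55 to 0.079 (*Klf2*) and -0.35 to 1.23 (*Prdm14*) in the morula, and from -0.040 to 0.28 (*Esrrb*) and -0.15 to 0.12 (*Tfcp2l1*) in 2iES cells. They ran from -0.10 to 0.21 for *Klf4* (morula against late two-cell), -0.15 to 0.36 for *Tbx3* (E4.5 ICM against morula), -0.36 to 0.020 for *Pou5f1* (2iES cells against E4.5 ICM), and -1.51 to 0.39 for *Sox2* and -0.22 to 0.0090 for *Tfcp2l1* (E4.5 ICM minus morula).

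With the replicate number as a block, 1 member, *Sox2*, was lower and called lower in the morula (log2 -1.64, adjusted p = 0.00288), where lower and higher genes went from 28 and 22 to 201 and 191. *Esrrb* for E4.5 ICM against morula (0.0313) and *Klf2* for 2iES cells against E4.5 ICM (0.0415) passed too, and no other member crossed the threshold under the block. At the late two-cell stage every sample correlated best with its own number (r of 0.02 to 0.05), a hint from the data only. In 2iES cells the numbers deviated against each other (r = -0.11), and the crossed block, chosen after seeing the data, gave 4496 lower and 4421 higher genes against 4352 and 4117, with 4 members lower and 3 higher as before.

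Over all genes, lower and higher in the morula numbered 194 and 175 with no filter, 84 and 77 with DESeq2 and 130 and 464 with all 18 libraries, and in E4.5 ICM 3681 and 3012 with all 18 libraries against 6098 and 6076. Intervals and tests cover these libraries only, and the low counts of *Sox2*, *Nanog* and, in the morula, *Prdm14* limit what early stages can show.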

Other observations

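In E4.5 ICM the 11 two-cell markers summed to 4.26 and 4.5 TPM in controls and to 3.52 and 5.00 TPM after dTAG13, the 10 cumulus markers to 3.53 to 4.64 TPM and 3.12 to 4.10 TPM, and the 8 fibroblast markers to 2.07 to 2.11 TPM and 1.92 to 2.06 TPM. The 10 oocyte markers summed to 69.6 and 71.5 TPM and then to 42.2 and 43.7 TPM, with 5 at 0 in each group. Most of both sums was *Ooep* (63.3 and then 40.0 TPM on average), which also stood at 87.2 TPM in 2iES controls. *Zp3*, a zona pellucida gene, was 3.63-fold lower in E4.5 ICM (5.57 to 1.57 TPM on average) and 4.03-fold lower in 2iES cells. In 2iES cells the two-cell markers ranged from 21.4 to 72.3 TPM in controls and from 44.4 to 105 TPM after dTAG13. The ranges overlapped, and *Zscan4d*, a gene of two-cell-like cells, was 3.82-fold higher. In the morula *Obox6*, an oocyte homeobox family gene, was the one gene of any marker list called, 5.50-fold higher after dTAG13. The two-cell sum went from 27.7 and 31.9 to 109 and 150 TPM, and nearly all of this rise was *Obox6* itself (22.1 to 121.5 TPM on average).

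At the late two-cell stage the oocyte markers summed to 1421 to 1442 TPM in controls and to 1789 to 2049 TPM after dTAG13, without overlap, with 1 of 10 markers past an adjusted p of 0.05. The 22 targets and 22 further regulators summed to 13533 to 15570 and 1794 to 1869 TPM in controls there. Few genes made up these sums. Most of the first was *Dppa3* (9167 TPM on average) and *Dppa5a* (1915), and most of the second was *Spic* (1221). Other targets were low, such as *Utf1* (1.81), *Nodal* (0.09) and *Lefty2* (0). The 10 members summed to 63.8 to 69.3 TPM, against 432 and 437 TPM in the morula and 606 and 623 TPM in E4.5 ICM.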
